A study of Mus musculus with 3 samples.

Results

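Kcnk1, Kcnk2 and Kcnk10, which encode the tandem-pore potassium channels TWIK-1, TREK-1 and TREK-2, are described here across the cells of mouse prefrontal cortex. They are 3 of the 20368 genes in the deposited expression table and were taken by name. The tissue came from mice of both sexes on postnatal day 6, killed on the same day after breathing sevoflurane, an inhaled anaesthetic, at a concentration of about 3%. The protocols mention flash freezing and Trizol and do not describe how cells were separated. Droplet libraries of single cells (10x Genomics Chromium) were made 3 times, always from exposed mice. The labels name no unexposed mice, strain or allele, and leave unsaid if each library is a different animal or a pool. Every comparison is therefore between cells of exposed tissue, no value measures a response to sevoflurane, and p-values measure the spread between these libraries, which may be technical.

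Tandem-pore channels pass potassium at rest, and a working channel is a dimer whose subunits each carry a pair of pore loops. They are among the potassium channels of astrocytes, the glia that clear potassium and glutamate from around synapses. Their part in the resting potential of these cells was not measured here. TREK channels open with membrane stretch, fatty acids and several volatile anaesthetics, and TWIK channels carry small currents in most expression systems.

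Cells were put in 7 classes by pairs of genes, both above 0: Aqp4 and Gja1 for astrocytes, Pdgfra and Lhfpl3 for oligodendrocyte precursors (OPCs), Mag and Mobp for oligodendrocytes, Dlx1 and Sp9 for neuroblasts, P2ry12 and Csf1r for microglia, Cldn5 and Flt1 for endothelium, and Kcnj8 and Vtn for pericytes. Of 14192 cells, 11322 fell in 1 class, 734 fell in 2 or more and were dropped, and 2136 fell in none. The classes held 3457 astrocytes, 2768 OPCs, 1809 neuroblasts, 1635 microglia, 852 pericytes, 774 endothelial cells and 27 oligodendrocytes. Of the 5 check markers of each class that the pairs did not use, 4 were highest in their own class for astrocytes and OPCs and 5 for each other class. The exception for OPCs, Cspg4, was highest in pericytes. Pericytes also had a mean of 2477 CPM summed over the 5 astrocyte markers, against 11212 CPM in astrocytes and 1148 CPM in OPCs. Red cell RNA was found in every class and was highest in endothelium, where 5 red cell markers summed to a mean of 18712 CPM, against 4217 to 7956 CPM in the other classes with over 27 cells. Libraries held 4283 to 5134 cells and between 24612481 and 29581504 corrected counts, and 90 barcode sequences occurred in 2 libraries.

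A level is the mean over the cells of a class of corrected counts scaled to CPM, in which each cell was scaled to the same total, so it is a mean per cell of the class. The authors had corrected the counts for depth, and a library's floor is the level that 3 corrected counts would give. Levels were not divided by transcript length and are compared between classes for 1 gene at a time, not between genes. Differences are on the log2(mean + 10 CPM) scale, which draws low genes toward 0, and adjusted p-values are from limma with Benjamini-Hochberg adjustment over all genes tested.

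Kcnk1 (ENSMUSG00000033998) lies on chromosome 8 at 125995170 to 126030685 (GRCm38, plus strand), and the annotation gives it 2 transcripts. Kcnk2 (ENSMUSG00000037624) lies on chromosome 1 at 189207930 to 189402273 (minus strand) with 10 transcripts, and Kcnk10 (ENSMUSG00000033854) on chromosome 12 at 98429437 to 98578310 (minus strand) with 4. Antisense genes overlap each locus, of which A430027H14Rik at Kcnk2 and Gm40893 at Kcnk10 have rows of their own in the table, and whether the counting used strand is not given in the sources used here. Since the 3 genes shared their high classes, the promoter window at the 5′ end of each is printed here, from RefSeq on GRCm38.p6, 250 bases before to 50 after the start, read on the gene's strand. Capitals mark the half-site TTGGC of NFI factors and the motif AACAAT of SOX factors, both families active in glia, searched on both strands (GCCAA and ATTGTT); the motifs did not overlap. The windows are chr8:125994852-125995151 for Kcnk1, chr1:189402224-189402523 for Kcnk2 and chr12:98578164-98578463 for Kcnk10.
Kcnk1: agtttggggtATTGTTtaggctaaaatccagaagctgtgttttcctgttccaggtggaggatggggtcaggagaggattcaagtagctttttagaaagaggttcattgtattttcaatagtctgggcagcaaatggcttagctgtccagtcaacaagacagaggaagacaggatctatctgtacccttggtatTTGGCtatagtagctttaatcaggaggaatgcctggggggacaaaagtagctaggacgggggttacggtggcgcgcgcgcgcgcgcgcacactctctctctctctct
Kcnk2: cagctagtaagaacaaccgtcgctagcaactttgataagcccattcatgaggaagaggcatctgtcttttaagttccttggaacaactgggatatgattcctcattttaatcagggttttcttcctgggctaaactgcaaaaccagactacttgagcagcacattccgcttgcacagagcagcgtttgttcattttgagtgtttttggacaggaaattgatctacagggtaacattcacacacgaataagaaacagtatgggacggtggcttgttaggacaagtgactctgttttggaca
Kcnk10: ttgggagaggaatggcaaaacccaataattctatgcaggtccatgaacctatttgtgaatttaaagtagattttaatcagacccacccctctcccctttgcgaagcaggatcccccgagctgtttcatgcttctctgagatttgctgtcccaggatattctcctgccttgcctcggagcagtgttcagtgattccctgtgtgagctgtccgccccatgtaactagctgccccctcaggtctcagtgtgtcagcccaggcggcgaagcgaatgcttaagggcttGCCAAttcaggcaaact

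The Kcnk1 window held 1 match to each motif, the Kcnk10 window 1 NFI half-site and the Kcnk2 window neither. Of 32851 windows of the same length, 46.7% held the NFI half-site and 10.7% the SOX motif. The windows contained 10, 6 and 7 CG pairs for Kcnk1, Kcnk2 and Kcnk10, against a median of 7 over all windows. At starts inside the gene, Kcnk2 had 3 further windows, with 3, 33 and 33 CG pairs and 0, 1 and 2 NFI half-sites, and Kcnk10 had 1, with 18 CG pairs and 2 NFI half-sites. None of these held the SOX motif. The data do not say which start was used.

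Among the classes, Kcnk1 was highest in astrocytes and next in OPCs. Its level was 149, 161 and 143 CPM in astrocytes of libraries 1, 2 and 3, against 86.9, 78.2 and 80.6 CPM in OPCs. The lowest astrocyte library was above the highest OPC library, and both classes were far above every other. The difference, astrocytes minus OPCs, was 0.81 ± 0.09 (SE; adjusted p = 3.16e-07), in a contrast in which 60.9% of 11562 genes passed the threshold of 0.05. Astrocytes held 63.8% of the 5041 corrected counts of Kcnk1 and OPCs 24.9%, at 24.4% and 19.5% of the cells.

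In the other classes Kcnk1 was at a few CPM or less. Cells of no class, described below, had a mean of 19.6 CPM, above their mean floor of 0.752 CPM. OPCs exceeded neuroblasts by 2.65 ± 0.09 (adjusted p = 4.29e-15; 65.4% of genes passed), with 3.94, 5.33 and 4.70 CPM in neuroblasts. The mean was 2.18 ± 0.204 CPM (SD, n = 3) in microglia, 1.43 ± 0.264 in pericytes and 1.33 ± 0.947 in endothelium, where the mean floors were 1.04, 1.95 and 1.85 CPM. Neuroblasts stood above microglia by 0.27 ± 0.09 (adjusted p = 0.0155; 71.6% of genes passed), a call that ended without library 2 (adjusted p = 0.130) and without library 3 (0.0530). No corrected count fell in the 27 oligodendrocytes, whose mean floor of 47.7 CPM leaves low expression undetectable.

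Kcnk2, the gene of the mechanically gated TREK-1 channel, reached further down the same order of classes. Its level was 213, 226 and 225 CPM in astrocytes, against 135, 136 and 136 CPM in OPCs. The OPC libraries were nearly equal, and no library of one class overlapped the other. The difference was 0.67 ± 0.11 (adjusted p = 2.60e-05). Neuroblasts, young cells of the interneuron lineage, had 49.0, 64.7 and 63.3 CPM, below OPCs by a difference, OPCs minus neuroblasts, of 1.09 ± 0.11 (adjusted p = 3.45e-08). The class mixes 601 dividing cells, with Mki67 or Top2a above 0, and 1208 others. Astrocytes held 53.6% of the 8497 corrected counts, OPCs 24.3% and cells of no class 10.3%.

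Below neuroblasts Kcnk2 dropped to a few CPM. Neuroblasts exceeded pericytes, at 5.51, 6.57 and 8.16 CPM, by 2.04 ± 0.11 (adjusted p = 1.50e-12; 71.9% of genes passed). Microglia had 2.96, 6.27 and 3.06 CPM, against 5.51 to 8.16 CPM in pericytes, and the difference of −0.25 ± 0.11 (adjusted p = 0.0470; 67% of genes passed) did not hold in most alternatives, where its adjusted p reached 0.981. Microglia minus endothelium was 0.28 ± 0.11 (adjusted p = 0.0291; 66.6% of genes passed), and this call ended without library 2 (0.403) and without library 3 (0.0712). The order among these low classes is thus not settled by the libraries. Oligodendrocytes gave 0, 17.4 and 77.8 CPM from 7 corrected counts in 27 cells, which does not place them.

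Kcnk10, the gene of TREK-2, had the opposite order at the top. Its level was 28.2, 24.4 and 15.6 CPM in astrocytes, against 68.9, 57.5 and 59.7 CPM in OPCs. Every OPC library exceeded every astrocyte library. The difference, astrocytes minus OPCs, was −1.15 ± 0.12 (adjusted p = 5.54e-08). Of the 3 genes 2 were thus higher and 1 lower in astrocytes, in a contrast in which 21% of all genes were higher and 39.9% lower. OPCs held 47.0% of the 2023 corrected counts of Kcnk10 and astrocytes 24.5%.

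Neuroblasts had 24.4, 24.4 and 15.9 CPM of Kcnk10, within the range of astrocytes, and in both classes library 3 was the lowest. Astrocytes minus neuroblasts was 0.05 ± 0.12 (adjusted p = 0.747; 71.3% of genes passed), so these neighbours did not differ beyond their spread. Neuroblasts exceeded pericytes by 1.48 ± 0.12 (adjusted p = 7.71e-10). The mean was 1.19 ± 0.501 CPM in pericytes, 0.925 ± 0.572 in microglia and 0.175 ± 0.303 in endothelium (SD, n = 3), each at or under its floor. Oligodendrocytes held 2 corrected counts in 27 cells.

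Over the 6 classes with at least 20 cells in every library, each gene varied past the threshold by limma's moderated F test, with an adjusted p of 5.67e-19 for Kcnk1, 1.65e-18 for Kcnk2 and 9.62e-15 for Kcnk10. Of all genes tested, 98.4% did so, so passing sets the 3 genes apart from few others. Genes averaging under 5 CPM were not tested. Each of the 3 reached that level only through astrocytes and OPCs, with neuroblasts for Kcnk2 and Kcnk10, so each had to differ. Contrasts of these classes with the low ones are limited in the same way.

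**Figure D1:**
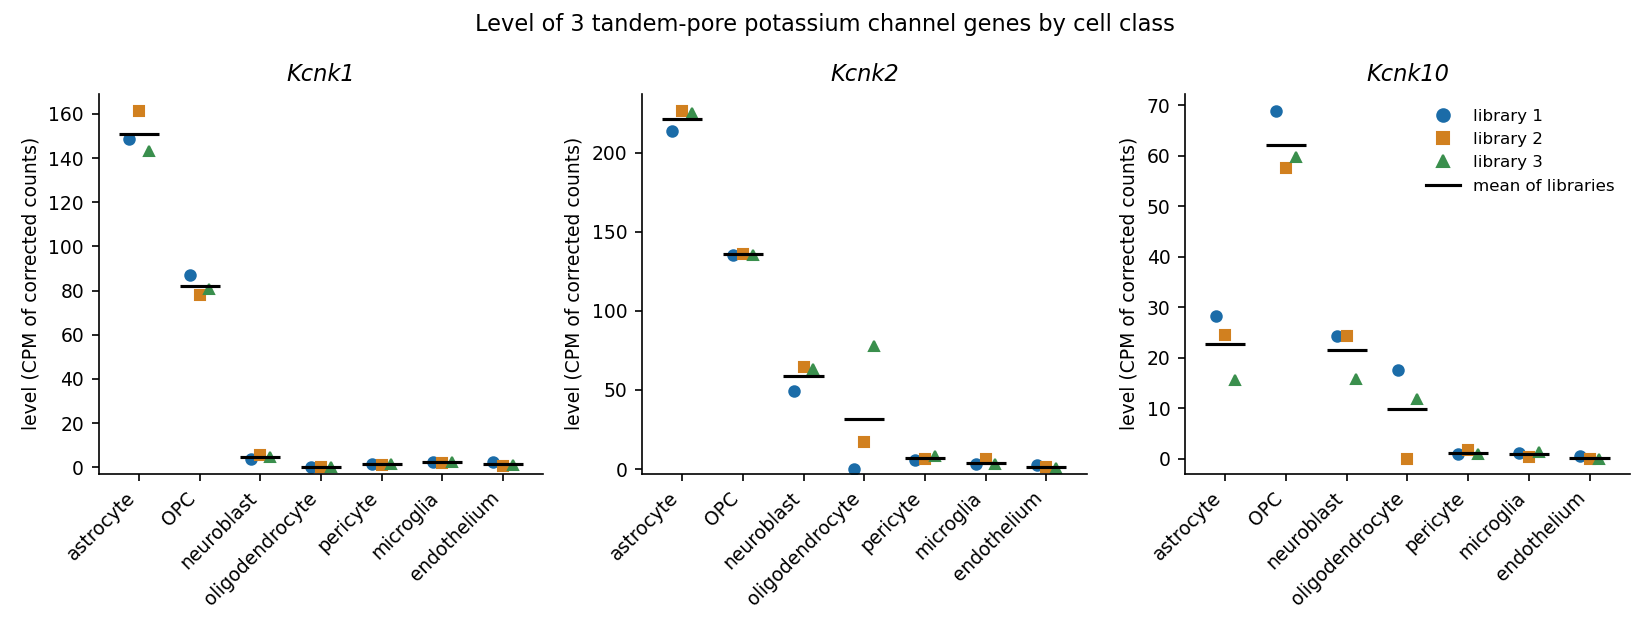
Level of each gene (CPM of corrected counts, linear axis, own scale per panel) in 7 cell classes; points are libraries and bars their means. Kcnk1 and Kcnk2 are highest in astrocytes (means of 151 and 221 CPM), Kcnk10 in OPCs (62.0 CPM), and oligodendrocytes rest on 27 cells.

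The share of cells with a corrected count followed the same order. Kcnk1 was above 0 in 55.6% ± 0.652 of astrocytes and 35.4% ± 2.27 of OPCs (SD, n = 3 libraries), and Kcnk2 in 65.7% ± 0.676 and 48.8% ± 0.785. Kcnk10 was above 0 in 12.7% ± 3.18 of astrocytes and 28.4% ± 2.93 of OPCs. After each cell was thinned to 4000 corrected counts, the shares in astrocytes and OPCs were 41.9% and 27.0% for Kcnk1, 53.2% and 39.8% for Kcnk2, and 8.45% and 21.8% for Kcnk10. No astrocyte and OPC library changed places through thinning, although a median astrocyte carried 6261 corrected counts and a median OPC 5272.5.

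In neuroblasts, with a median of 5057 corrected counts, the share was 20.9% ± 3.05 for Kcnk2 and 10.9% ± 2.96 for Kcnk10, or 17.4% and 7.85% after thinning. Red cells should lack the channels and were taken as the cells of no class with Alas2, a gene of heme synthesis in red cells, a choice made after values had been seen. Of 313 such cells, with a median of 6078 corrected counts but 264 detected genes, 8 had Kcnk1, 12 Kcnk2 and 8 Kcnk10, mean shares of 2.53% ± 0.782, 3.52% ± 2.81 and 2.27% ± 2.11 (SD, n = 3). They also held RNA of other types: the 5 markers summed to as much as 1393 CPM for oligodendrocytes, 622 for microglia and 638 for pericytes in a library. The Kcnk1 shares in microglia, pericytes and endothelium, 0.752% to 1.12%, lay below the mean red cell share. After thinning they were 0.869%, 0.699% and 0.293%, with microglia no longer below the red cell mean of 0.833%. These shares were within or under the red cell spread. In neuroblasts the Kcnk1 share, 2.32% ± 0.644, was within the red cell spread, and after thinning it was 1.66%, against 0.833% ± 1.44 in red cells. The Kcnk10 shares in microglia, pericytes and endothelium, 0.116% to 0.709%, lay below the mean red cell share. That share was 2.65%, 4.17% and 0% in libraries 1, 2 and 3. The Kcnk2 share in endothelium, 0.980%, was also below its red cell mean. The Kcnk2 share was 1.65% ± 0.844 in microglia and 3.19% ± 0.837 in pericytes, also under the red cell mean, but red cells ranged over 2.65%, 6.67% and 1.25% in libraries 1, 2 and 3. Whether any of these low shares is background was not tested.

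**Figure D2:**
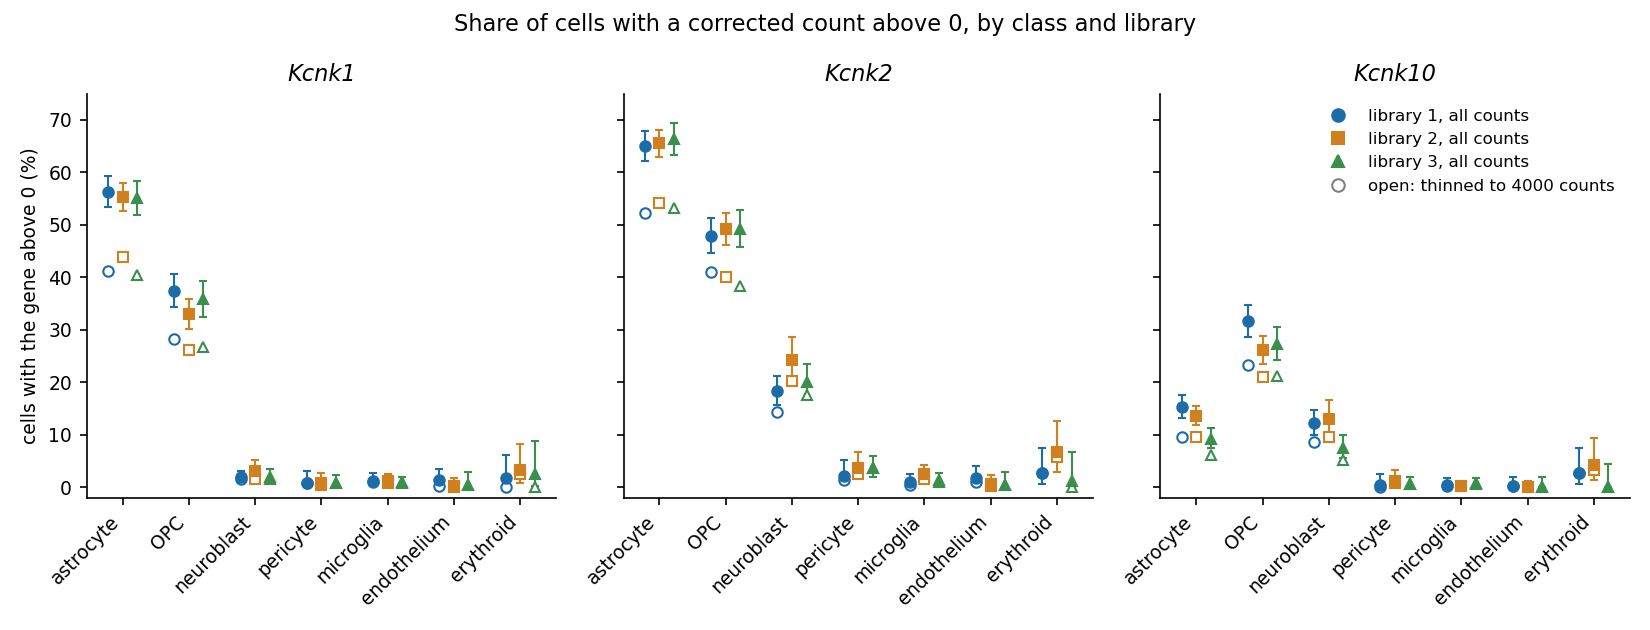
Share of cells (%) with each gene above 0, by class and library; filled points use all corrected counts with exact (Clopper-Pearson) 95% binomial intervals, which cover counting error only, and open points follow thinning to 4000 corrected counts per cell. Red cells serve as a reference that should lack the channels, and astrocytes, OPCs and, for Kcnk2 and Kcnk10, neuroblasts lie above it.

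Few corrected counts were detected per cell. Among cells above 0 the mean was 1.66 corrected counts of Kcnk1, 2.01 of Kcnk2 and 1.10 of Kcnk10 in astrocytes, and 1.29, 1.53 and 1.22 in OPCs. Many cells held more than 1 of the genes: 38.4% ± 0.408 of astrocytes and 27.5% ± 1.96 of OPCs had 2 of the 3 above 0 (SD, n = 3). All 3 were above 0 in 4.87% ± 1.30 of astrocytes and 5.66% ± 1.35 of OPCs, and none in 14.1% ± 0.514 and 26.3% ± 1.69. Kcnk1 and Kcnk2 occurred together in 37.2% ± 0.155 of astrocytes, where the product of their shares is 36.5%. In OPCs the pair occurred in 19.2% ± 1.12, where the product is 17.3%, and the ratio of observed to product was 1.07 to 1.15 over the libraries. Astrocytes with Kcnk1 were thus about as likely as all astrocytes to show Kcnk2. Deeper cells show more of any pair of genes.

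The astrocyte class was divided by Slc7a10, a transporter gene of protoplasmic astrocytes, and the 3 genes were higher in the cells with it. Kcnk1 was at 157, 172 and 147 CPM in the 2990 cells with Slc7a10, against 105, 94.1 and 114 CPM in the 467 cells without, and the groups did not overlap. The difference was 0.56 ± 0.11 (adjusted p = 0.0105; 18.2% of 10964 genes passed). Kcnk2 was at 217, 233 and 235 CPM with Slc7a10, against 193, 184 and 145 CPM without, again with no overlap and a difference of 0.38 ± 0.11 (adjusted p = 0.0443). Kcnk10 was at 30.3, 25.2 and 16.8 CPM with Slc7a10, against 16.8, 19.4 and 5.88 CPM without, higher in 3 of 3 libraries but with overlapping ranges, a difference of 0.54 ± 0.15 (adjusted p = 0.0460).

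The calls depend on single libraries. Without library 2 the adjusted p was 0.111 for Kcnk1, 0.179 for Kcnk2 and 0.115 for Kcnk10, and without library 3 it was 0.162 for Kcnk2 and 0.158 for Kcnk10, though the direction was the same throughout; without library 1 it was 0.0526 for Kcnk10, while Kcnk1 (9.60e-05) and Kcnk2 (3.08e-04) passed. Depth was alike, with a median of 6259.5 corrected counts in cells with Slc7a10 and 6299 in cells without. Other markers moved with the split: the 5 astrocyte check markers, Slc7a10 among them, summed to 11740 to 11953 CPM with Slc7a10, against 6510 to 7746 CPM without. The 5 OPC markers summed to 849.5 to 952 CPM with it, against 447 to 638 CPM without. The 5 neuroblast markers summed to 51.6 to 73.9 CPM with it, against 94.2 to 330.3 CPM without, and the 5 red cell markers to 3599.8 to 7026 CPM, against 1985 to 15817 CPM. The part of these in the channel differences was not tested.

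Division by Gfap, a gene of fibrous and border astrocytes, moved the genes less. Kcnk1 was at 146, 141 and 133 CPM in the 1398 cells with Gfap, against 151, 176 and 149 CPM in the 2059 without, a difference of −0.16 ± 0.06 (adjusted p = 0.114; 11.9% of genes passed). Kcnk2 went the other way, at 229, 252 and 227 CPM with Gfap, against 203, 207 and 223 CPM without (0.16 ± 0.06, adjusted p = 0.109). In both genes 3 of 3 libraries pointed the same way, but neither passed in the main fit. Kcnk10 was at 24.6, 24.6 and 14.3 CPM with Gfap, against 30.7, 24.3 and 16.3 CPM without (−0.11 ± 0.10, adjusted p = 0.545).

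Dividing cells, with Mki67 or Top2a above 0, had less Kcnk2 in both glial classes. In OPCs Kcnk2 was at 114, 108 and 112 CPM in the 705 dividing cells, against 141, 146 and 144 CPM in the 2063 others. The groups were well apart, and the difference was −0.35 ± 0.07 (adjusted p = 1.73e-04; 29.4% of genes passed), past the threshold under every alternative run. Dividing OPCs carried a median of 6181 corrected counts and other OPCs 5171, and the difference was also past the threshold in thinned cells. The 5 OPC markers summed to 4423 to 4658 CPM in dividing OPCs, against 5726 to 5922 CPM in the others. The 5 astrocyte markers summed to 862 to 949 CPM in dividing OPCs, against 1203 to 1256 CPM in the others, and the part of either was not tested. Kcnk1 was at 85.3, 84.1 and 71.8 CPM in dividing OPCs, against 87.4, 76.0 and 83.8 CPM in the others (−0.03 ± 0.08, adjusted p = 0.808), and Kcnk10 at 69.8, 57.0 and 65.7 CPM, against 68.6, 57.7 and 57.5 CPM (0.06 ± 0.09, adjusted p = 0.684). Both pairs of groups overlapped.

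In astrocytes Kcnk2 was at 181, 189 and 197 CPM in the 363 dividing cells, against 217, 231 and 228 CPM in the 3094 others, again without overlap. The difference was −0.24 ± 0.07 (adjusted p = 0.0161; 12% of genes passed). The 5 astrocyte markers summed to 9886 to 10003 CPM in dividing astrocytes, against 11098 to 11659 CPM in the others, and the part of this was not tested. The difference lost its call without library 2 (0.172), without library 3 (0.05003) and in thinned cells (0.156). Kcnk1 (−0.03 ± 0.08, adjusted p = 0.897) and Kcnk10 (−0.13 ± 0.15, adjusted p = 0.704) did not pass. Whether the Kcnk2 difference is unlike that of the other genes was not tested.

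**Figure D3:**
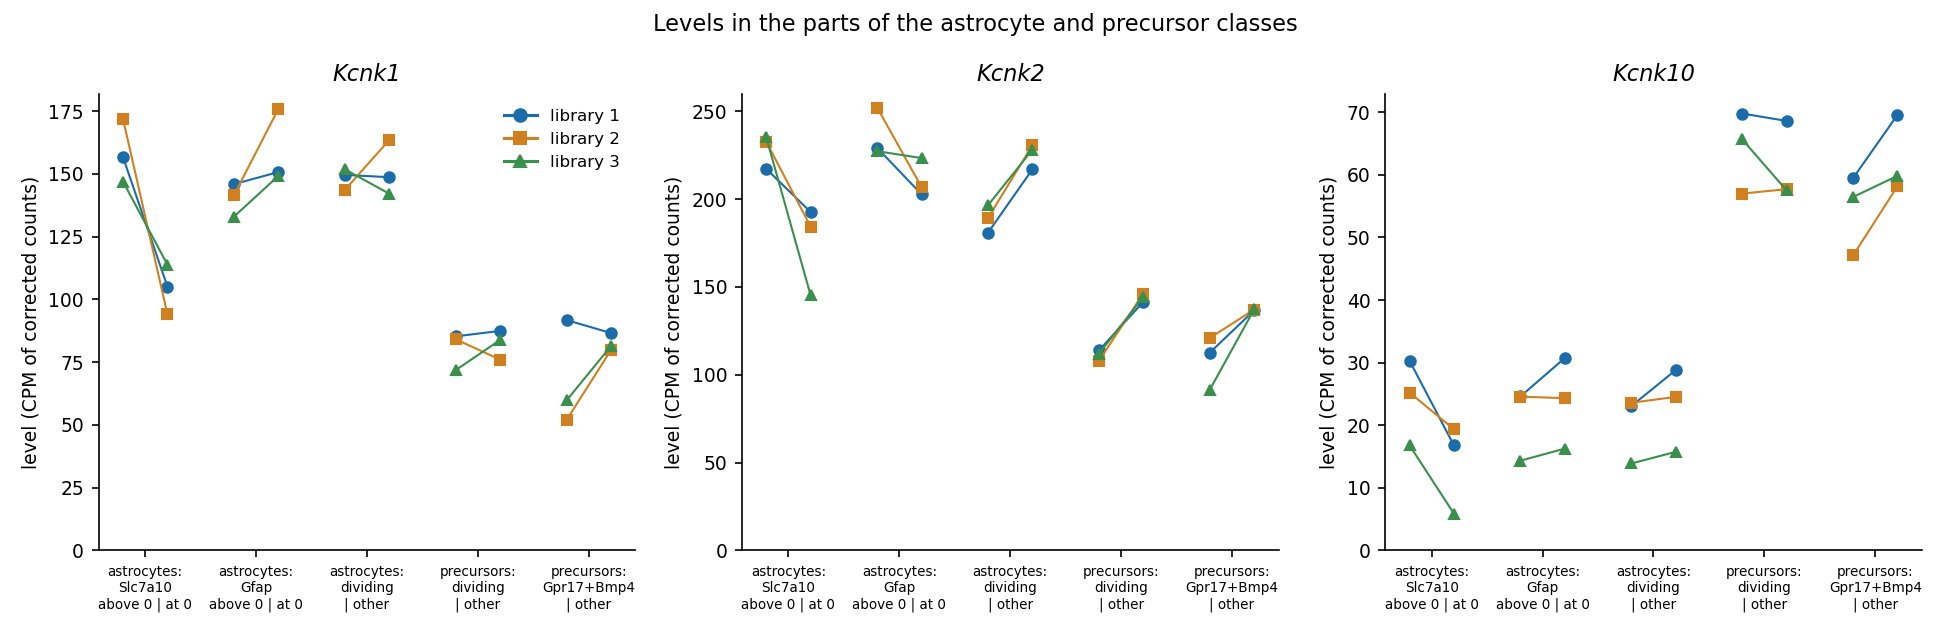
Level of each gene (CPM of corrected counts) in both parts of 5 splits; each line joins the parts of 1 library, with the part named first on the left. Kcnk2 is lower in dividing than in other cells in every library of both classes (107.9 to 114 against 141 to 146 CPM in OPCs), and all 3 genes are higher in astrocytes with Slc7a10.

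Cells further along from OPCs toward oligodendrocytes had lower mean levels of the 3 genes than OPCs without Gpr17 and Bmp4 together. The first step passed no test, the next 2 were not tested and the last rests on 27 cells. At the last step Kcnk2 and Kcnk10 did not fall further, with means of 31.7 and 9.85 CPM in oligodendrocytes. Cells of no class with Mbp and Mag had means of 9.64 and 4.77 CPM. OPCs with Gpr17 and Bmp4, genes switched on as precursors commit to differentiate, numbered 152 of the 2768. Kcnk2 was at 113, 121 and 91.5 CPM in them, against 137, 137 and 137 CPM in the other OPCs, a difference of −0.32 ± 0.14 (adjusted p = 0.281; 3.44% of genes passed). Kcnk1 was at 91.8, 52.0 and 59.8 CPM, against 86.6, 79.8 and 81.4 CPM (−0.28 ± 0.17, adjusted p = 0.531), and Kcnk10 at 59.5, 47.1 and 56.5 CPM, against 69.6, 58.2 and 59.8 CPM (−0.17 ± 0.18, adjusted p = 0.800). None passed in a group this small, although Kcnk2 and Kcnk10 were lower in 3 of 3 libraries.

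The next steps lie outside the classes and were added after values had been seen, so they are described without a test. Cells of no class with Gpr17 and Bmp4 but not both Mbp and Mag, myelin genes, numbered 175 and had nearly lost Pdgfra, at 2.63 ± 4.55 CPM (SD, n = 3). They had 18.6, 30.7 and 34.5 CPM of Kcnk1, 59.4, 45.1 and 41.4 of Kcnk2, and 21.8, 24.9 and 11.9 of Kcnk10. Each value lay below all 3 OPC values of its gene. Cells of no class with both Mbp and Mag numbered 179, with Mbp at 12233 ± 1516 CPM. They had 5.35, 4.47 and 0 CPM of Kcnk1, 11.01, 17.9 and 0 of Kcnk2, and 5.34, 8.98 and 0 of Kcnk10, lower again in every library. These rest on 4, 11 and 6 corrected counts, at a mean floor of 7.79 CPM. Median depth was 5254.5 corrected counts in OPCs without Gpr17 and Bmp4 together, 6047.5 in those with both, 6325 in the next step and 6734 in the cells with Mbp and Mag. Pdgfra is one of the genes that define OPCs, so the loss of Pdgfra between steps is given by the rule.

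**Figure D4:**
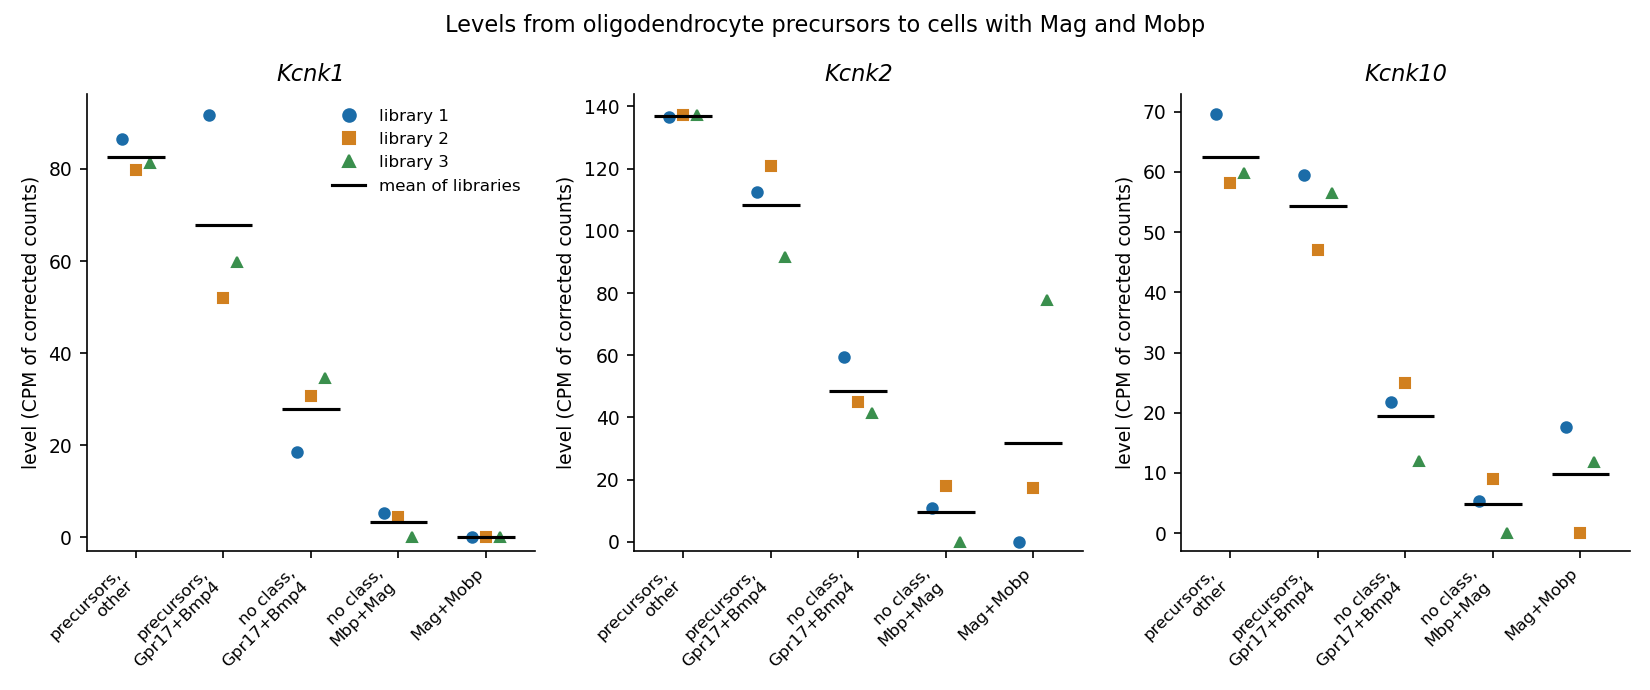
Level of each gene (CPM of corrected counts) in 5 steps from OPCs to cells with Mag and Mobp; points are libraries and bars their means. Kcnk1 averages 82.6, 67.8, 27.9, 3.27 and 0 CPM over the steps, and the last step holds 27 cells. Kcnk2 and Kcnk10 average 9.64 and 4.77 CPM at the fourth step and 31.7 and 9.85 CPM at the last.

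Neuroblasts also differed by division, in a split added after values had been seen and given with no test. Kcnk2 was at 34.3, 40.5 and 31.2 CPM in the 601 dividing neuroblasts, against 58.9, 82.7 and 70.5 CPM in the 1208 others, and the groups did not overlap. Kcnk10 had the reverse order, at 26.4, 28.5 and 29.8 CPM in dividing neuroblasts, against 23.0, 21.3 and 12.8 CPM in the others. Kcnk1 was under 5.5 CPM in every library of both. Dcx, a gene of migrating neurons, was at 458 ± 23.0 CPM in dividing neuroblasts and 867 ± 87.1 in the others (SD, n = 3), and depth also differed, with medians of 6353 and 5016.5 corrected counts.

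Of 14 tandem-pore genes listed, 11 were in the table, and the 8 besides the 3 described were low in astrocytes and OPCs, at 7.91 CPM or less. Microglia held 3 of them. Kcnk13, which encodes the potassium channel THIK-1 of microglia, was at 71.2, 63.5 and 52.4 CPM there. Kcnk12, its close relative, was at 59.6, 47.1 and 46.9 CPM, and Kcnk6, which encodes TWIK-2, at 32.9, 29.2 and 38.5 CPM. In the other 5 large classes these genes reached at most 7.91 ± 0.661 CPM (SD, n = 3), the level of Kcnk12 in OPCs. Kcnk3, which encodes the acid-sensitive TASK-1, was at 5.36, 5.07 and 5.01 CPM in OPCs and 5.63, 2.58 and 10.2 CPM in pericytes. Kcnk5 was at 2.72 ± 0.819 CPM in astrocytes, and Kcnk4, Kcnk7 and Kcnk9 were at 1.09 CPM or less in every class. Genes that reach the minimum level through microglia alone had to differ, so no test is given.

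**Figure D5:**
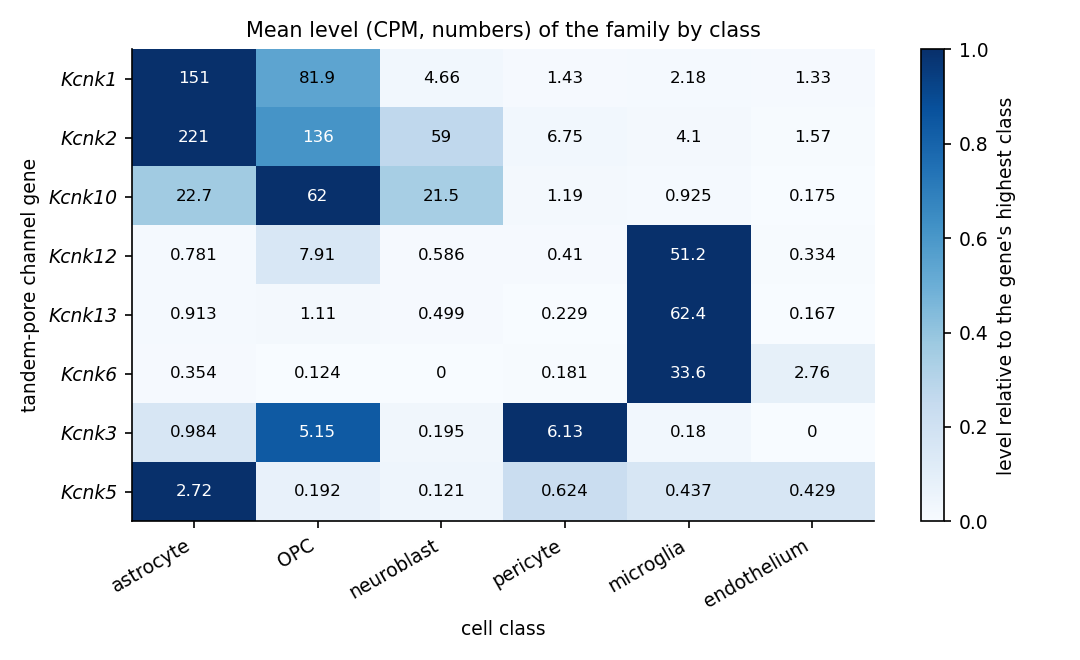
Mean level (numbers, CPM of corrected counts, n = 3 libraries) of 8 tandem-pore genes in 6 classes; shading is relative to the highest class of the same gene. Kcnk1, Kcnk2 and Kcnk10 peak in astrocytes or OPCs, and Kcnk12, Kcnk13 and Kcnk6 in microglia (51.2, 62.4 and 33.6 CPM).

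Most listed genes for potassium and glutamate uptake were higher in astrocytes than in OPCs. Of 12 listed, 9 were higher and 2, Slc12a2 and Kcnma1, were lower, while Kcnj2 did not pass (0.01 ± 0.08, adjusted p = 0.913). Kcnj2 was at 0.196 CPM in astrocytes and 0.112 CPM in OPCs, under the mean floors of 0.441 and 0.595 CPM. Its test therefore does not show equal levels. The median difference was 1.53, against −0.13 over all 11562 genes tested, of which 21% were higher and 39.9% lower, or 28.0% and 29.9% with the median gene set to 0. The glutamate transporters Slc1a2 (3.70 ± 0.15) and Slc1a3 (3.30 ± 0.11) had the largest differences. Kcnj10, the inwardly rectifying channel Kir4.1 that works beside tandem-pore channels in astrocytes, was at 218 ± 12.9 CPM in astrocytes and 63.7 ± 5.95 in OPCs (SD, n = 3; 1.63 ± 0.13, adjusted p = 1.09e-09). Slc12a2, an importer of sodium, potassium and chloride, was lower, at 16.3 ± 0.689 CPM in astrocytes and 50.5 ± 3.82 in OPCs (−1.20 ± 0.09, adjusted p = 4.14e-10). Between OPCs and neuroblasts 10 of the 12 were higher and 1 lower in OPCs, or 9 and 2 once the median gene was set to 0 in each class mean. Of all genes 46.9% were higher and 18.4% lower in OPCs, or 24.7% and 50.3% so centred. Kcnj10 was among those with the largest differences (2.32 ± 0.13).

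Of 14 genes listed for proteins reported to bind or regulate TREK and TWIK channels, 12 were tested, of which 2 were higher and 8 lower in astrocytes than in OPCs, with a median difference of −0.44, in the contrast in which 21% of all genes were higher and 39.9% lower. With the median gene set to 0 the counts were 2 and 7. Pld2, a phospholipase D that associates with TREK-1, was at 63.2 ± 2.20 CPM in astrocytes and 6.45 ± 1.46 in OPCs (SD, n = 3; 2.16 ± 0.13, adjusted p = 1.33e-11). Psd, an exchange factor for the small GTPase Arf6 that takes part in TWIK-1 recycling, was at 4.17 ± 0.841 CPM and 24.8 ± 2.75 (−1.29 ± 0.11, adjusted p = 6.58e-09). Kcnj10, Kcnj2, Kcnma1, Slc12a2, Pld2 and Psd were chosen after their values were seen.

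The genes whose levels followed each channel most closely over 18 class means, 6 classes in 3 libraries, were picked by Pearson's r among 11562 genes. For Kcnk1 they were Gabrg1 (r = 0.996), Npas3, Grm5, Sez6l and Nim1k (0.995 each, to the third digit). For Kcnk2 they included Fmn2 (0.993), Adgrb3 (0.991), Tnfaip6 (0.988) and Chst10 (0.985). For Kcnk10 they were Rlbp1 (0.984), Cacng4 (0.983), Zfp612 (0.983), A730017C20Rik (0.982) and Wasf1 (0.980). Gabrg1 encodes a GABA-A receptor subunit, Grm5 a metabotropic glutamate receptor and Cacng4 an AMPA receptor auxiliary subunit. Between the channels r was 0.906 for Kcnk1 and Kcnk2, 0.891 for Kcnk2 and Kcnk10, and 0.770 for Kcnk1 and Kcnk10. The 18 points share classes and libraries, so the coefficients only describe these class means.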

How the data were processed

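Per the submitters' processing notes the authors used CASAVA 1.8, Cell Ranger and Seurat with the build mm10; how depth was corrected and cells filtered is not given in the sources used here. The deposited values are natural log (ln) values, ln(1 + a whole number): all 34958786 values above 0 became whole within a relative tolerance of 1e-06 when the log was undone. Depth before correction is unknown, so no count model was fitted.

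Each cell was scaled to CPM, cells were averaged by class and library, and limma 3.58.1 (R 4.3.3) was run on log2(mean + 10 CPM) with its trend option. Library entered as a block, and genes averaging under 5 CPM were left out. A cell could fall in any of 7 classes, but oligodendrocytes, with 8, 8 and 11 cells, were under the minimum of 20 per library, so the fit held 6 classes, 15 pairs and 18 class means, with 10 residual degrees of freedom. The threshold was an adjusted p of 0.05. Each class was compared with its neighbour in the order of a gene's levels, so that order gives the sign. Library is the pairing, since classes of a library come from the same sample. The fit was also run on simulated normal values with its own residual spread. That checks the code and not whether the assumptions of the fit hold for these data. Suspected doublets (Scrublet in scanpy 1.11.5; 120, 78 and 89 cells) were kept, and were removed in an alternative.

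The genes, lists and splits were chosen with earlier results of these data known. Named are the 3 channels, the family list, the 5 genes most like each channel and, per class contrast, the 2 genes of the other lists with the largest difference. Some of these are not reported here. Red cells were to be marked by a pair of genes and were marked by Alas2 alone. Positions are from GENCODE M21.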

Additional observations from a re-analysis of the deposited data

Results flagged for a closer look

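The 3 genes also had signal in the 2136 cells of no class, which no comparison uses. Kcnk1 was at a mean of 19.6 ± 4.29 CPM, Kcnk2 at 71.7 ± 11.9 and Kcnk10 at 18.4 ± 7.75 (SD, n = 3 libraries), all above the floor of 3 corrected counts, a mean of 0.752 CPM. Of all corrected counts, 4.72% of Kcnk1, 10.3% of Kcnk2 and 11.9% of Kcnk10 lay in these cells, which were 15.1% of the cells.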

How the results depend on the processing

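Under every alternative run, the 3 differences between astrocytes and OPCs, those between OPCs and neuroblasts for Kcnk1 and Kcnk2, and Kcnk2 in dividing OPCs (−0.504 to −0.196) kept their direction and side of the threshold, though with the mean over cells of log2 Kcnk10 reached the minimum level, and so was tested, only in the 2 splits of OPCs. Differences are log2 values, and the cause of each change was not tested. Without a filter on low values, the Slc7a10 differences of 0.559 for Kcnk1, 0.382 for Kcnk2 and 0.536 for Kcnk10, Kcnk2 in dividing astrocytes (−0.242) and Kcnk2 in microglia minus pericytes (−0.254) lost their calls. Without the library block the Kcnk10 difference by Slc7a10 (0.536) lost its call (adjusted p = 0.190), and no other call of a channel gene changed. With Scrublet doublets removed, calls were lost for Kcnk2 (0.374) and Kcnk10 (0.515) by Slc7a10 and for microglia minus pericytes (−0.189). With cells of 2 classes kept in both, neuroblasts minus microglia for Kcnk1 was 0.0141, microglia minus pericytes −0.00935, and Kcnk2 by Gfap passed at 0.207. Centring on the median gene gave −0.268 for Kcnk10 in astrocytes minus neuroblasts, −0.102 for Kcnk10 in dividing OPCs and 0.00311 for microglia minus pericytes. For astrocytes minus OPCs the all-gene median was 0.01 with centring and −0.13 otherwise. Requiring 2 corrected counts of class genes gave 0.00716 for Kcnk1 in dividing OPCs and −0.235 for microglia minus pericytes. Without scaling, Kcnk1 was 0.0127 in dividing astrocytes and 0.110 in dividing OPCs, Kcnk2 −0.191 in dividing astrocytes, and microglia minus pericytes −0.243. With the mean over cells of log2, Kcnk1 was 0.0245 in dividing astrocytes, 0.196 in dividing OPCs and 0.0526 in neuroblasts minus microglia. Kcnk10 passed in dividing OPCs at 0.209, and Kcnk2 was −0.267 in dividing astrocytes, 0.0355 in microglia minus endothelium and −0.0635 in microglia minus pericytes. With only both classes in the fit the last was −0.254 (adjusted p = 0.0996). Thinning gave 0.224 for neuroblasts minus microglia, −0.209 for Kcnk2 in dividing astrocytes and 0.248 for microglia minus endothelium.

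Leaving out each library gave 0.437 to 0.668 for Kcnk1, 0.243 to 0.490 for Kcnk2 and 0.426 to 0.672 for Kcnk10 by Slc7a10, and −0.225 to −0.0995 for Kcnk1 by Gfap. The limma adjusted p of Kcnk1 by Gfap was then 0.0342 at the lowest, past the threshold, and 0.549 at the highest. In dividing astrocytes it gave −0.0834 to 0.0488 for Kcnk1 and −0.261 to −0.227 for Kcnk2, and in dividing OPCs −0.115 to 0.0484 for Kcnk1. Neuroblasts minus microglia was 0.222 to 0.301, microglia minus pericytes −0.367 to −0.143, microglia minus endothelium 0.146 to 0.413, and Kcnk10 in astrocytes minus neuroblasts −0.00731 to 0.0781.

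Counts of genes called moved by over 1.5 times in these cases. With the mean over cells of log2 they were 4051 in place of 7041 for astrocytes minus OPCs, 4510 in place of 7557 for OPCs minus neuroblasts, and 4719 to 4880 in place of 7701 to 8316 for the other class contrasts; listed partners called fell to 6, against 10. Without a filter they were 734 in place of 1991 by Slc7a10, 704 in place of 1263 by Gfap, 427 in place of 1290 in dividing astrocytes and 7 in place of 376 in committed OPCs. Committed OPCs also gave 97 to 249 under other settings and 222 without library 1. Dividing astrocytes gave 799 without the block and 813 without library 2, the Gfap split 791 without library 3 and the Slc7a10 split 516 without library 2. Few counts limit the levels in oligodendrocytes and of Kcnk1 and Kcnk10 in microglia, endothelium and pericytes.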

Other observations

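Kcnk2 was high in small groups of cells outside the classes, set by pairs of genes that were chosen after values had been seen and given with no test. Of 66 cells with Reln and Trp73, genes of the Cajal-Retzius cells that guide cortical layering, 83.5% on average had Kcnk2, or 55.9% ± 10.99 after thinning to 4000 corrected counts, against 53.2% in astrocytes, at a level of 226 ± 33.0 CPM (SD, n = 3 libraries), while Kcnk1 had 1 corrected count among them. In 72 cells with Dcn and Col1a1, genes of fibroblasts, Kcnk2 was at 130 ± 43.3 CPM and Kcnk10 had no corrected count, which at a mean floor of 20.2 CPM does not show that it is absent. In 45 cells with Acta2 and Myh11, genes of smooth muscle, Kcnk2 was at 5.74 ± 4.98 CPM, under the mean floor of 33.5 CPM.

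In 211 cells with Sfrp1 and Igfbp5 the levels were 43.3 ± 21.7 CPM of Kcnk1, 168 ± 12.8 of Kcnk2 and 41.0 ± 14.9 of Kcnk10. Cells with Neurod2 and Neurod6, genes of excitatory neurons, numbered 49 and had Kcnk2 at 128 ± 53.9 CPM. Library 3 held 3 of them, at 69.7 CPM, against 137 and 176 CPM in libraries 1 and 2. Cells with Eomes and Neurod1, genes of the progenitors of those neurons, also numbered 49 and had Kcnk2 at 132.5 ± 72.0 CPM. Here library 3 held 2 cells, at 216 CPM, against 89.6 and 92.2 CPM in libraries 1 and 2. The mean floors of these last groups were 81.8 and 119 CPM, so their levels rest on few counts, 39 and 24. Some cells are in more than 1 of these groups.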
